A study of Mus musculus with 14 samples.

Results

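The acyl-CoA thioesterases (Acot genes) were examined in the ileum mucosa of high-fat diet (HFD)-fed mice with and without nuclear receptor corepressor 1 (NCoR1) in their intestinal epithelial cells. The members were the 10 rows of the count table named Acot1, Acot2, Acot3, Acot4, Acot7, Acot8, Acot9, Acot11, Acot12 and Acot13, of 54532 genes in all. Of these, 9 passed the filter on low counts and were tested among 13846 genes, while Acot3 did not pass. WT mice were NCoR1 flox/flox animals without Cre, so the controls carried the floxed alleles too. IKO mice were NCoR1 flox/flox animals with Cre recombinase under the villin promoter, which acts in the intestinal epithelium. All mice were male and had received the HFD for 15 weeks. Their starting age is given as 7 to 8 weeks in the methods and as 9 weeks, with chow before the HFD, elsewhere in the sources used here. There were 7 WT and 7 IKO mice with 1 RNA library per mouse.

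Acyl-CoA thioesterases split a fatty acyl-CoA or another CoA ester into the free acid and CoA. They act opposite to the acyl-CoA synthetases, and so set how much of an acid is held in its activated form and how much free CoA is left in a compartment. The family has a pair of unrelated folds. The type I enzymes, Acot1 to Acot6, are close paralogs that share an α/β-hydrolase fold, whereas the others named here carry hotdog-fold domains. Several type I genes are known targets of PPARα, the nuclear receptor for fatty acids that NCoR1 can repress.

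Acot1, Acot2, Acot4 and Acot8 were higher in IKO mice, by 9.50-, 3.95-, 2.92- and 1.79-fold, and in each the lowest IKO mouse lay above the highest WT mouse. These are the cytosolic and the mitochondrial type I enzyme, a peroxisomal type I enzyme and the peroxisomal hotdog-fold enzyme. The other 5 tested members, Acot7, Acot9, Acot11, Acot12 and Acot13, did not pass the test. Thus 4 of 9 tested members were called higher and 0 lower at an adjusted p under 0.05 in edgeR's quasi-likelihood test. Over all genes tested, 8.67% were called, 4.38% as higher and 4.28% as lower in IKO mice. The median log2 fold change of the 9 members was 0.39, beside -0.09 over all genes tested, and 8 of the 9 had a value above 0, beside 43.5% of all genes. This median is the value of Acot13, and it was 0.22 without IKO 2, the lowest with 1 mouse left out, and 0.52 without WT 4, the highest. The genotypes did not overlap for 4 members, all with IKO above WT, beside 3.1% of all genes without overlap and 1.83% with IKO above WT.

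The type I members lie side by side on chromosome 12 and are alike in sequence, which bears on how their reads can be told apart. In GRCm38, the annotated genes are on the plus strand at chr12:83987861-83993873 for Acot2, chr12:84009490-84018371 for Acot1, chr12:84038379-84048601 for Acot4 and chr12:84052144-84060402 for Acot3. In the coding sequences of GENCODE M21, Acot1 and Acot2 were identical at 95.3% of 1236 aligned bases, with an unbroken identical run of 273 bases, whereas Acot1 and Acot4 were identical at 74.6% of 1250. The coding sequence of Acot2 starts with 123 bases that have no counterpart in Acot1. As the stretch that sets the mitochondrial enzyme apart from its cytosolic paralog, it is shown here, followed by the first 90 coding bases of Acot1 and the Acot2 bases aligned with them, where capitals mark the 11 bases at which the 2 differ.
Acot2, coding bases 1 to 123: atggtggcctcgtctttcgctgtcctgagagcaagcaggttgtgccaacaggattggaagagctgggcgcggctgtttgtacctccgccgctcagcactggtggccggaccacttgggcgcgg
Acot1, coding bases 1 to 90: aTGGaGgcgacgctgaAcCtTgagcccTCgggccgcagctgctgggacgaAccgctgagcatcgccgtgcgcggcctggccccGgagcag
Acot2, coding bases 124 to 213: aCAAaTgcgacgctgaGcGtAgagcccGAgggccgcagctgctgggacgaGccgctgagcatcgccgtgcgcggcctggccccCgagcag

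Peroxisomal enzymes commonly carry their import signal in the last residues of the protein. The last 12 coding bases before the stop codon are shown for the type I members and Acot8, with the last 3 codons in capitals, since the compartment is what separates these enzymes most.
Acot1: tctCCTAAAATA
Acot2: ggtAGCAAGAGT
Acot3: ccaGCAAAACTG
Acot4: tccTGTAGACTG
Acot8: gagAGTAAGCTA
In Acot3, Acot4 and Acot8, the members known as peroxisomal, the last codon is CTG or CTA, whereas it is ATA in Acot1 and AGT in Acot2.

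The promoters of the 4 higher members are shown because PPARα binds a direct repeat of the hexamer AGGTCA with 1 base between the copies (DR1). They run from 250 bases before to 50 bases after the RefSeq transcript start in GRCm38.p6 and are written 5′ to 3′ on the strand of the gene, with matches to AGGTCA on either strand in capitals.
Acot1, chr12:84009252-84009551, plus strand: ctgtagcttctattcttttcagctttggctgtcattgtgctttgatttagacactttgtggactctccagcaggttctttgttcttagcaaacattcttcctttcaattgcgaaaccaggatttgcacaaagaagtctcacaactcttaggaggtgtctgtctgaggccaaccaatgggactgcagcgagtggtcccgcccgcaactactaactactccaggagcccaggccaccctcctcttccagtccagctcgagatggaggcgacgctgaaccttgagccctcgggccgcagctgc
Acot2, chr12:83987611-83987910, plus strand: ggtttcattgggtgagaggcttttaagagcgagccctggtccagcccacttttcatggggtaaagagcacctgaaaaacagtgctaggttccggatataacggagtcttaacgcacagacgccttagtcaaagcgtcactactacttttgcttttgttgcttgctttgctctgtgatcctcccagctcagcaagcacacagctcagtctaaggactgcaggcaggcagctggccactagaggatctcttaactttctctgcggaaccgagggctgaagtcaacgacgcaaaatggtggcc
Acot4, chr12:84038129-84038428, plus strand: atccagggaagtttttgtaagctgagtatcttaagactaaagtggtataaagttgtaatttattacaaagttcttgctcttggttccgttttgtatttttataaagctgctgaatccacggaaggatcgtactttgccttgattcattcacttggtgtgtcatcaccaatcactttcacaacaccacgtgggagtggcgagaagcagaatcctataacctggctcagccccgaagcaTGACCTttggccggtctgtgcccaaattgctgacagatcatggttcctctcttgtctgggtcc
Acot8, chr2:164804832-164805131, minus strand: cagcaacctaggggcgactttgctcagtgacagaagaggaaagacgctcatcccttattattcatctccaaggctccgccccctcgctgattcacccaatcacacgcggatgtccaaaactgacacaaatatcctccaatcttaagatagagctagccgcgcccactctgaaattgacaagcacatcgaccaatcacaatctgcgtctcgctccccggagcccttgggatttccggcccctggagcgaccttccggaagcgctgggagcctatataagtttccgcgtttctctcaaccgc
RefSeq promoters were matched for 9 of the 10 members. The full DR1 (AGGTCA, then any 1 base, then AGGTCA), searched on both strands, was in 0.0399% of 32544 promoters of the same length, and a looser form with AGGNCA in place of each AGGTCA, which takes in the first, in 0.384%. Neither form was found in the windows of the 9 members. The single hexamer AGGTCA was in 16.2% of all promoters and, among the 4 shown, in that of Acot4, on the minus strand from 13 to 8 bases before the start. It was also in the windows of Acot3 and Acot12. These matches describe letters in a short window and not binding sites.

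Between 14749669 and 21557468 reads per mouse were counted on genes. Mitochondrially encoded genes took 50.3% of them in IKO 4, 23.9% in WT 3 and 3.49% to 10.3% in the others. Ncor1, the targeted gene, had levels of 106, 130 and 195 CPM (lowest, median and highest; read counts scaled to library size with the TMM factors) in WT and 31.7, 47.7 and 64.0 CPM in IKO mice. Its log2 fold change was -1.41, with no overlap. All 9 enterocyte markers passed the filter, with summed levels of 20687 to 101816 CPM in WT and 46817 to 83732 CPM in IKO mice, and 1 of them, Fabp1, was called higher. The 6 immune cell markers, none called, summed to 2297 to 2828 CPM in WT and 1609 to 3610 CPM in IKO mice. Among them, Jchain of plasma cells had 311 ± 131 CPM in WT and 297 ± 108 CPM in IKO mice (SD, n = 7 each). Ptprc of leukocytes had 51.2 ± 34.3 CPM in WT and 19.2 ± 13.6 CPM in IKO mice (SD, n = 7 each). The samples labelled as intestinal epithelial cells thus also held RNA of cells in which villin-Cre is not active. The 6 smooth muscle markers, none called, summed to 10855 CPM in WT 4, against medians of 22.6 CPM in WT and 10.5 CPM in IKO mice. Without WT 3, WT 4 and IKO 4, the log2 fold changes were 3.01 for Acot1, 1.89 for Acot2, 1.47 for Acot4 and 0.74 for Acot8, all still called. In bulk mucosa, a change in the number of cells of a type cannot be told apart from a change in RNA per cell.

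**Figure D1:**
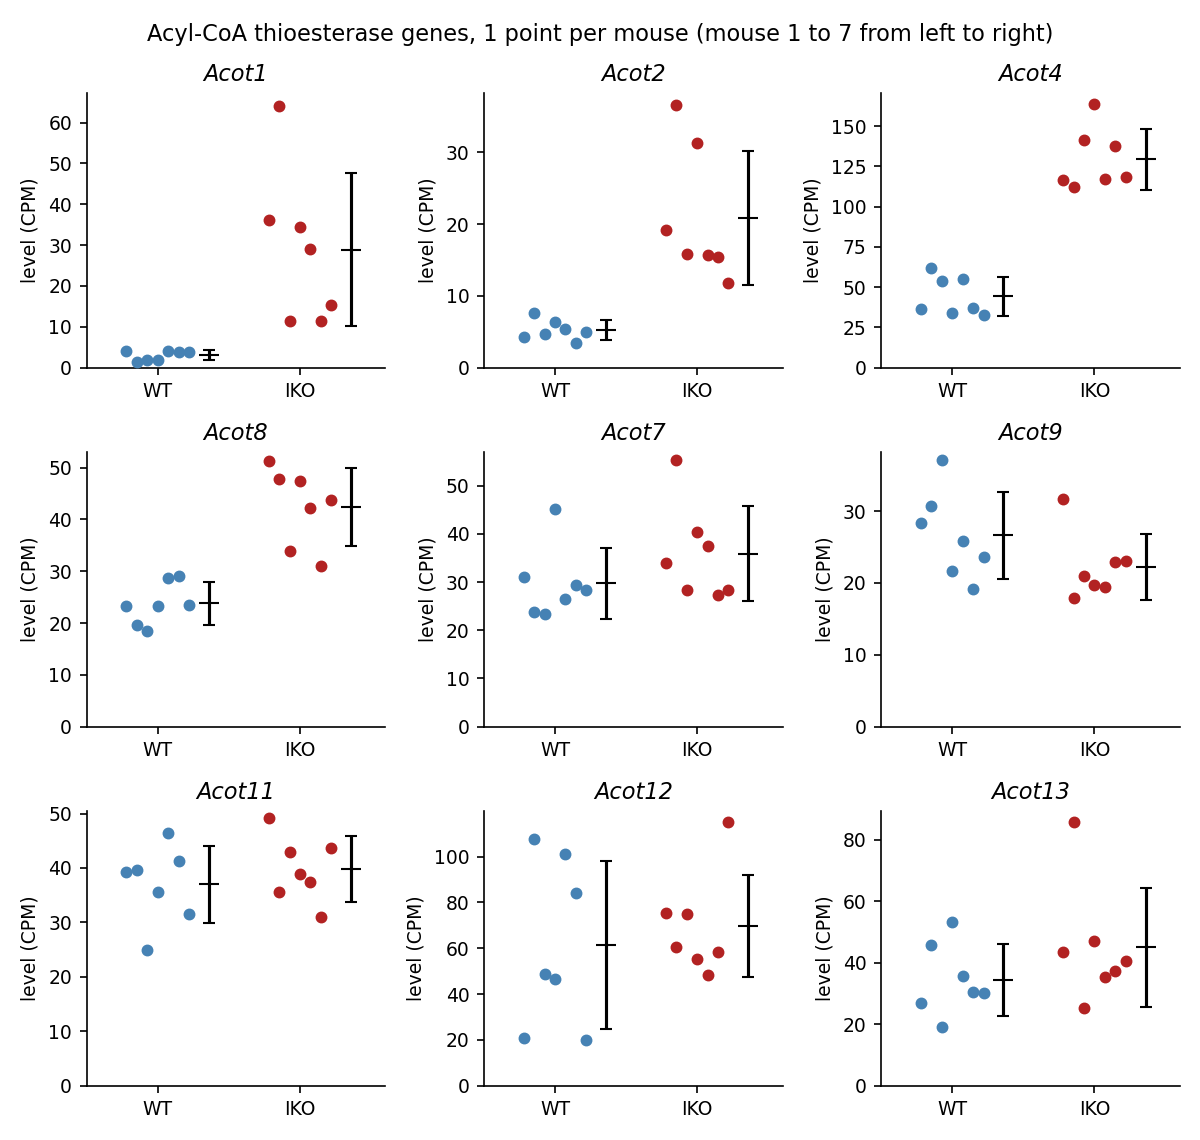
Levels of the 9 tested members in CPM (linear axes from 0) for each of 7 WT (blue) and 7 IKO (red) mice, with mouse 1 to 7 from left to right and the mean ± SD in black. In Acot1, Acot2, Acot4 and Acot8, all 7 IKO mice lie above all 7 WT mice, whereas the genotypes overlap in the other 5 genes.

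Acot1, the cytosolic enzyme that hydrolyses long-chain acyl-CoAs, had the largest change among the members. Its level was 1.35 CPM in the lowest WT mouse (WT 2), 3.74 at the median and 4.19 in the highest (WT 5), and 11.4 in the lowest IKO mouse (IKO 6), 29.0 at the median and 64.0 in the highest (IKO 2). The WT values fell in a low set (WT 2, WT 3 and WT 4, up to 1.97 CPM) and a higher set of the other 4 mice, and the lowest IKO mouse was 2.73 times the highest WT mouse. Means were 3.02 ± 1.23 CPM in WT and 28.9 ± 18.8 CPM in IKO mice (SD, n = 7 each). On the log2 scale IKO mice were 3.25 ± 0.42 (SE) above WT mice (edgeR adjusted p = 0.00051), a fold of 9.50 with a 95% confidence interval of 5.10 to 17.7. With a CV of 65.0%, IKO mice varied more among themselves in Acot1 than in any other of the 9 tested members, and IKO 3, IKO 6 and IKO 7 were the 3 low ones, at up to 15.3 CPM.

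Acot2 is the mitochondrial paralog and acts on long-chain acyl-CoAs in the matrix. Its level was 3.40 CPM in the lowest WT mouse (WT 6), 4.95 at the median and 7.67 in the highest (WT 2), against 11.7 in the lowest IKO mouse (IKO 7), 15.9 at the median and 36.5 in the highest (IKO 2). The genotypes did not overlap, and IKO 2 and IKO 4 stood above the other 5 IKO mice. The means of 5.26 ± 1.41 CPM (SD, n = 7) and 20.8 ± 9.31 CPM (SD, n = 7) gave a log2 fold change of 1.98 ± 0.27 (SE; edgeR adjusted p = 0.00086), with a 95% confidence interval of 2.65- to 5.90-fold.

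Because featureCounts may split, share or leave out reads that match both genes, Acot1 and Acot2 were also summed. Their sum was 6.59, 8.46 and 9.63 CPM (lowest, median and highest) in WT and 26.9, 44.8 and 101 CPM in IKO mice. The log2 difference of the sum was 2.41, a 5.32-fold difference (p = 0.000583 in an exact two-sided permutation test, the lowest possible with 7 mice per genotype). Since neither gene overlapped between the genotypes, their sum could not overlap, which fixes this p at its lowest value. The sum over all of Acot1 to Acot6 was 3.36-fold higher, with 42.7 to 72.0 CPM in WT and 147 to 231 CPM in IKO mice (exact two-sided permutation test, p = 0.000583). The higher summed level of the type I cluster therefore did not depend on how the counted reads were divided among its members, although the value of each single gene could. Most of this sum was Acot4, with a mean of 44.3 of 54.3 CPM in WT and 129 of 181 CPM in IKO mice. As Acot4 did not overlap between the genotypes either, the p of this sum adds little to the calls of the single genes. Of the windows of the length of 1 read in the longest Acot1 transcript, 12.4% also occurred in a transcript of another gene, Acot2, Acot3 and Acot5 among them, and 10.2% of those of Acot2 also occurred in Acot1.

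Among the peroxisomal members, Acot4, which is known to hydrolyse succinyl-CoA and other dicarboxylyl-CoAs, was the type I gene with the highest level per length in both genotypes (6.49 FPKM in WT and 19.4 FPKM in IKO mice). WT mice had 32.5 CPM at the lowest (WT 7), 37.1 at the median and 61.6 at the highest (WT 2), and IKO mice had 112 (IKO 2), 118 and 164 (IKO 4). The IKO values were close together, with a CV of 14.6%, and the lowest of them was 1.82 times the highest WT value. Means were 44.3 ± 12.01 CPM (SD, n = 7) and 129 ± 18.9 CPM (SD, n = 7), a log2 fold change of 1.55 ± 0.18 (SE; edgeR adjusted p = 0.00024) and a 95% confidence interval of 2.25- to 3.79-fold. Acot4 overlaps 4732463B04Rik on the opposite strand, and whether the counting used the strand is not given in the sources used here. That gene had 2.10 ± 1.00 CPM in WT and 2.30 ± 0.97 CPM in IKO mice (SD, n = 7 each) and was not called (log2 fold change 0.14).

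Acot8, a peroxisomal thioesterase of wide substrate range that includes bile acid CoA esters, had the smallest fold among the 4. Its level was 18.5 CPM in the lowest WT mouse (WT 3), 23.4 at the median and 29.2 in the highest (WT 6), and 30.9 (IKO 6), 43.7 and 51.3 (IKO 1) in IKO mice. The gap between the genotypes was small, the lowest IKO mouse being 1.06 times the highest WT mouse. The means were 23.8 ± 4.06 CPM (SD, n = 7) and 42.5 ± 7.53 CPM (SD, n = 7), a log2 fold change of 0.84 ± 0.15 (SE; edgeR adjusted p = 0.0062) and a 95% confidence interval of 1.43- to 2.23-fold. Acot8 lies on chromosome 2 on the minus strand at chr2:164792765-164804882 and overlaps Snx21, for which the log2 fold change was -0.34 and was not called.

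Acot3, a peroxisomal type I enzyme, was hardly detected. It overlaps 4732463B04Rik on the opposite strand and Gm49366 on the same strand, which had 0 counts in all mice. Of the read-length windows in the longest Acot3 transcript, 13.5% also occurred in a transcript of another gene. The part of this sharing in the low counts of Acot3 was not tested. WT 1 to WT 7 had 1, 3, 0, 0, 1, 2 and 2 counts, 9 in all, and IKO 1 to IKO 7 had 6, 9, 1, 3, 4, 7 and 1, 31 in all. The counts of 5 IKO mice gave a level above the highest WT level, but most of the 14 values were near or under the limit of 3 counts per library, so no fold is given. In the edgeR fit without a filter on low counts (adjusted p = 0.173) and in DESeq2 (adjusted p = 0.0665), Acot3 was not called.

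The hotdog-fold members of the cytosol and mitochondria gave overlapping genotypes in all 5 cases. Acot7, a cytosolic enzyme that acts on long-chain acyl-CoAs such as arachidonoyl-CoA, had 23.4, 28.4 and 45.2 CPM (lowest, median and highest) in WT and 27.3, 33.9 and 55.2 CPM in IKO mice. Its highest values were those of WT 4 and IKO 2, and the 95% confidence interval of the fold was 0.914 to 1.59. Acot9, a mitochondrial enzyme, was the only tested member with a lower fitted level in IKO mice, with 19.2, 25.9 and 37.2 CPM in WT and 17.9, 21.0 and 31.7 CPM in IKO mice. Only IKO 1 exceeded the WT median, and the interval ran from 0.650- to 1.07-fold. Acot11, which joins hotdog domains to a lipid-binding START domain, had 24.9, 39.3 and 46.4 CPM in WT and 30.9, 38.9 and 49.2 CPM in IKO mice, with an interval of 0.862- to 1.34-fold. It overlaps Fam151a on the opposite strand, for which the log2 fold change was 0.50 and was not called. The intervals of these 3 genes leave out a fold as large as that of Acot8.

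Acot12, the cytosolic acetyl-CoA hydrolase that also carries a START domain, spread most in WT mice. It had 20.1, 48.7 and 108 CPM in WT and 48.3, 60.6 and 115 CPM in IKO mice, and its CV was 59.5% in WT and 32.0% in IKO mice. WT 1 and WT 7 were low, at up to 20.8 CPM, whereas WT 2, WT 5 and WT 6 were at or above 84.3 CPM, and the interval of the fold was wide, 0.671 to 1.93. Acot13, a small mitochondria-associated enzyme also called Them2, had 19.1, 30.4 and 53.1 CPM in WT and 25.4, 40.5 and 85.9 CPM in IKO mice, where IKO 2 stood above all others, with an interval of 0.889- to 1.92-fold. The adjusted p of the 5 genes in edgeR's quasi-likelihood test ran from 0.309 (Acot9) to 0.756 (Acot12), and their log2 fold changes from -0.26 (Acot9) to 0.39 (Acot13). These intervals do not show that the genotypes were alike, and for Acot12 and Acot13 they include a fold as large as that of Acot8.

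**Figure D2:**
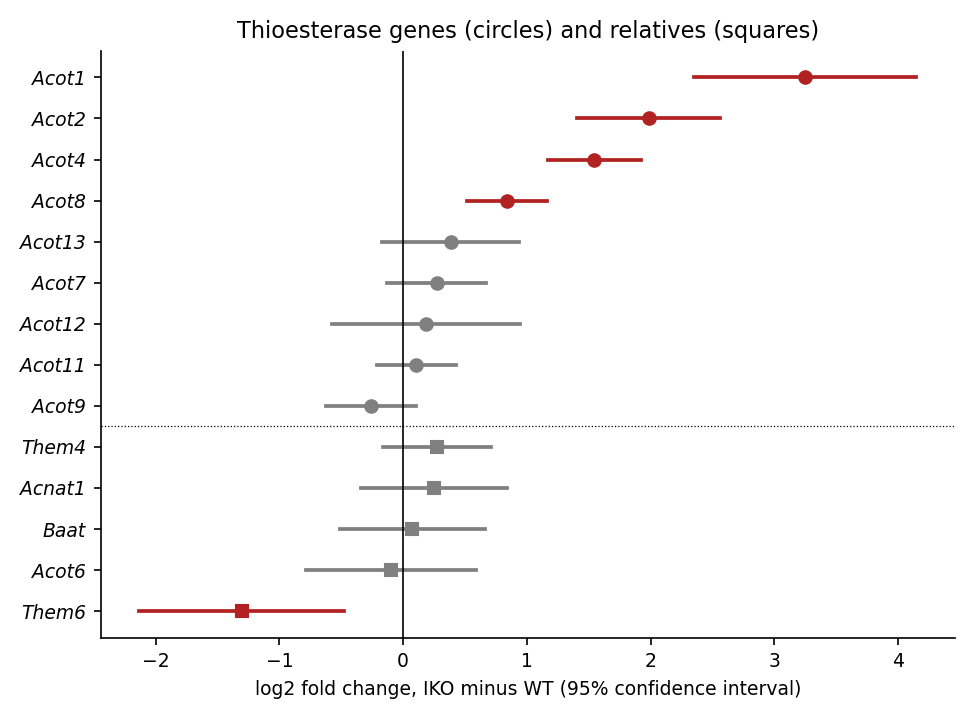
Log2 fold change (IKO minus WT) with its 95% confidence interval from edgeR's quasi-likelihood test for the 9 tested members (circles, above the dotted line) and 5 tested relatives (squares), in red where the adjusted p was under 0.05. Acot1, Acot2, Acot4 and Acot8 lie to the right of 0 with their whole intervals, and Them6 lies to the left of it.

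Whether the paralogs changed by different amounts was tested on the ratio of their levels within each mouse, over the 3 pairs among Acot1, Acot2 and Acot4. The log2 ratio of Acot1 to Acot2 was -0.85 ± 0.95 in WT and 0.32 ± 0.59 in IKO mice (SD, n = 7 each), a difference of 1.17 (exact two-sided permutation test, p = 0.0163, adjusted p = 0.0245 over 3 pairs). The log2 ratio of Acot1 to Acot4 was -3.90 ± 0.89 in WT and -2.41 ± 1.03 in IKO mice (SD, n = 7 each), a difference of 1.49 (exact two-sided permutation test, p = 0.0146, adjusted p = 0.0245). In this test the counts of Acot1 thus rose more than those of either paralog, although the ranges of both ratios overlapped between the genotypes. The ratio of Acot1 to Acot2 can also depend on how reads that match both genes were divided, which was not tested. Both differences missed the threshold without IKO 1, without IKO 2 or without IKO 5, with values of 1.07, 1.09 and 1.08 for Acot1 to Acot2 and 1.37, 1.23 and 1.43 for Acot1 to Acot4 (exact permutation adjusted p = 0.0551 in each). They also missed it without WT 3, WT 4 and IKO 4, at 0.96 and 1.26 (exact permutation adjusted p = 0.136). For Acot2 to Acot4, the difference was 0.32 (exact two-sided permutation test, p = 0.271), which did not pass.

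**Figure D3:**
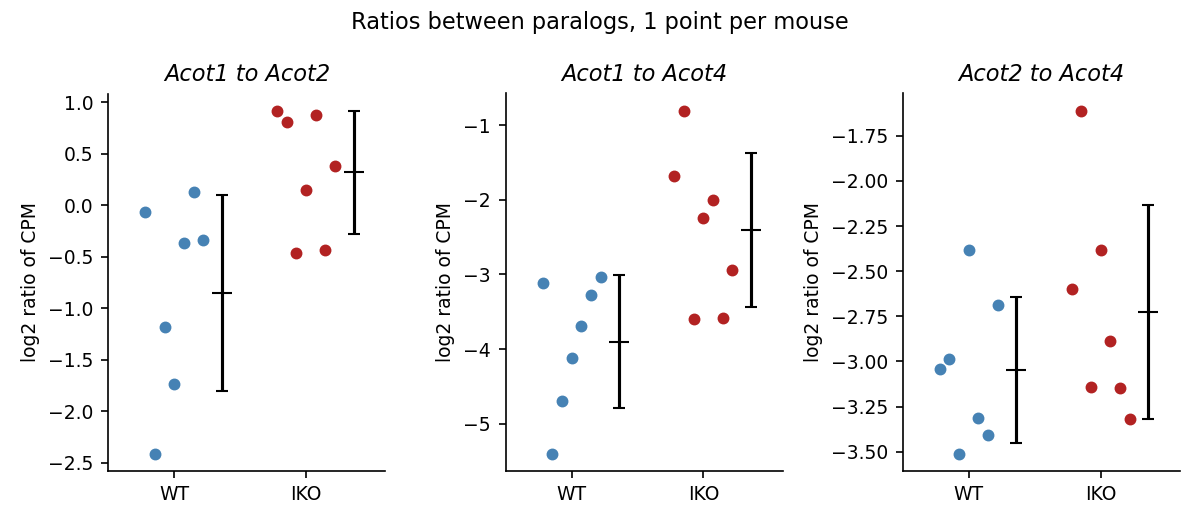
Log2 ratio of the CPM of 2 paralogs in each of 7 WT (blue) and 7 IKO (red) mice, with mouse 1 to 7 from left to right and the mean ± SD in black. The mean ratio of Acot1 to Acot2 was -0.85 in WT and 0.32 in IKO mice, with overlapping ranges.

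Within a genotype, the paralogs were also compared across mice, in 6 correlations of log2 CPM over 7 mice each. Acot1 and Acot2 had r = 0.795 (exact permutation p = 0.0331, adjusted p = 0.199) and rho = 0.786 (exact permutation p = 0.048, adjusted p = 0.288) in IKO mice, where r was 0.884 without the 2 mice farthest from the median. In WT mice r was -0.692 (exact permutation p = 0.0952, adjusted p = 0.286) and rho -0.464 (exact permutation p = 0.302, adjusted p = 0.604), and r was 0.02 without the 2 farthest mice, so that the WT value rested on those. None of the 6 passed after adjustment, and the other 4 had r between -0.452 and 0.428.

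Between genes, levels can be compared only per length, for which the deposited FPKM were used. In WT mice, Acot13 had the highest level, 45.3 ± 15.2 FPKM, followed by Acot12 (18.3 ± 10.9 FPKM), Acot7 (13.7 ± 3.41), Acot8 (11.7 ± 2.10), Acot9 (11.4 ± 2.52), Acot4 (6.49 ± 1.75), Acot11 (5.98 ± 1.19), Acot2 (2.34 ± 0.62), Acot1 (0.75 ± 0.31) and Acot3 (0.018 ± 0.019 FPKM; SD, n = 7 in each). Neighbours in this order differed between Acot13 and Acot12, Acot9 and Acot4, Acot11 and Acot2, Acot2 and Acot1, and Acot1 and Acot3, each in 7 of 7 mice (exact sign-flip permutation test, p = 0.0156, the smallest for 7 mice, adjusted p = 0.0281 over 9 neighbours). The differences from Acot12 down to Acot9, and between Acot4 and Acot11, were within the spread between mice. These tests used the deposited gene lengths. With the length of the longest coding transcript, Acot1 would be at 1.30 ± 0.54 FPKM beside Acot2 at 2.34 ± 0.62 FPKM in WT mice (SD, n = 7 each). Their difference at that length was not tested.

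In IKO mice the order was Acot13 (60.7 ± 25.9 FPKM), Acot8 (21.3 ± 3.81), Acot12 (21.2 ± 6.87), Acot4 (19.4 ± 2.89), Acot7 (16.9 ± 4.69), Acot9 (9.79 ± 1.94), Acot2 (9.51 ± 4.27), Acot1 (7.39 ± 4.78), Acot11 (6.59 ± 0.98) and Acot3 (0.080 ± 0.051 FPKM; SD, n = 7 in each). Here neighbours differed only between Acot13 and Acot8, Acot7 and Acot9, and Acot11 and Acot3 (exact sign-flip permutation test, adjusted p = 0.0469). Of the summed FPKM of the 10 genes, which was 116 ± 24.1 in WT and 173 ± 38.4 in IKO mice (SD, n = 7 each), Acot4 made up 5.72% ± 1.62 in WT and 11.7% ± 3.06 in IKO mice. Acot1 made up 0.691% ± 0.333 and 4.003% ± 1.81, and Acot2 2.03% ± 0.376 and 5.36% ± 1.46 (SD, n = 7 each). Acot13 remained the largest share, at 38.5% ± 7.06 and 34.0% ± 6.41 (SD, n = 7 each). The deposited gene length of Acot1 and of Acot8 is 1.72 and 1.73 times that of their longest coding transcript. With the length of that transcript, Acot8 would be at 20.2 and 37.0 FPKM and Acot1 at 1.30 and 12.7 FPKM in WT and IKO mice, which places Acot8 second in both genotypes and Acot1 above Acot2 and level with Acot9 (12.7 FPKM) in IKO mice. On the same lengths, Acot7, at 23.9 FPKM in IKO mice, moves from rank 5 to rank 3 there, above Acot12 (22.9 FPKM) and Acot4 (20.9 FPKM).

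**Figure D4:**
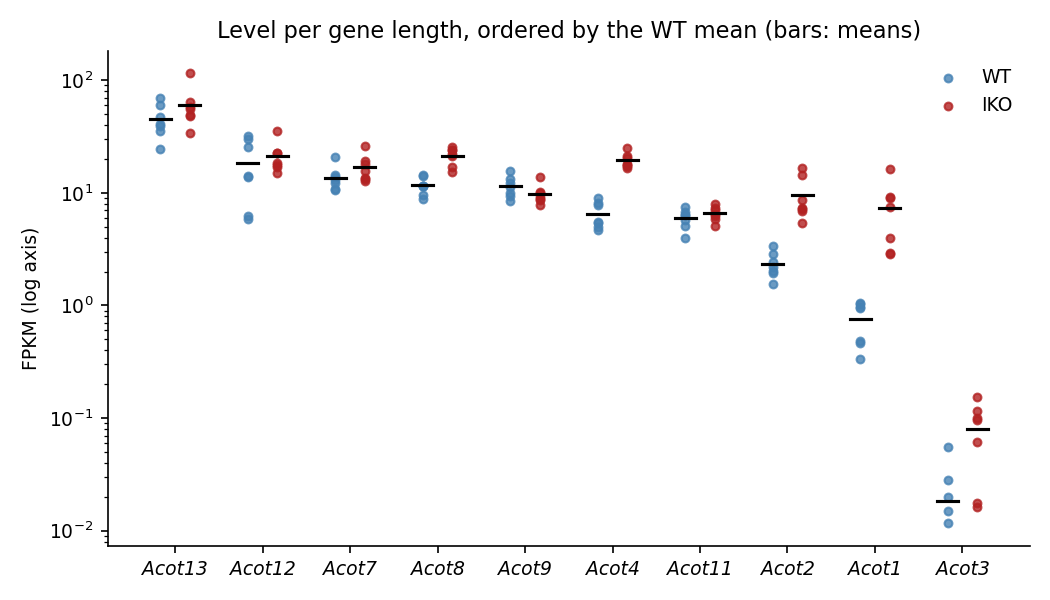
Deposited FPKM (log axis) of the 10 members in each WT (blue) and IKO (red) mouse, ordered by the WT mean, with the mean of 7 mice as a black bar and values of 0 in Acot3 not drawn. Acot13 is the highest in both genotypes, and Acot1, Acot2 and Acot4 lie closer to the other members in IKO mice than in WT mice.

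Of 9 relatives of the family, 5 were tested, 0 were called higher and 1 lower, with a median log2 fold change of 0.08. Beside these, 4.38% of all genes tested were called higher and 4.28% lower. Acot6, the remaining expressed gene of the type I cluster, had 1.40 ± 0.70 CPM in WT and 1.29 ± 0.32 CPM in IKO mice (SD, n = 7 each), with a log2 fold change of -0.10 that turned positive under 4 alternatives. Baat, which joins bile acids to taurine, Acnat1, an acyl-CoA to amino acid transferase, and Them4, a mitochondrial thioesterase, had log2 fold changes of 0.08, 0.25 and 0.28 and were not called. For Them6 the log2 fold change was -1.30 ± 0.39 (SE; edgeR adjusted p = 0.0490), with 4.43 ± 3.10 CPM in WT and 1.78 ± 0.42 CPM in IKO mice (SD, n = 7 each). WT 3, WT 4 and WT 7 had 8.29, 9.26 and 4.53 CPM, while the other 4 WT mice were at 1.997 to 2.66 CPM. The call was lost in 18 of 24 alternatives, among them 11 of the 14 that left out 1 mouse, where the log2 fold change ran from -1.43 to -1.01. Without WT 3, WT 4 and IKO 4 it was -0.52 (edgeR adjusted p = 0.289). Acot5, Acot10 and Acnat2 had too few counts to be tested, and Them5 had 0 counts in all 14 mice.

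The enzymes that make and use acyl-CoAs were counted in lists of the same pathways. Over all genes tested, 4.38% were called higher and 4.28% lower, with a median log2 fold change of -0.09. In the list of the carnitine shuttle and mitochondrial β-oxidation, 11 of 19 tested genes were called higher and 0 lower, with a median log2 fold change of 0.77. Slc25a20, the carnitine-acylcarnitine carrier, had a log2 fold change of 1.37, Acadvl, the very long-chain acyl-CoA dehydrogenase, of 1.21, and Hadhb, a subunit of the trifunctional protein, of 1.15. Slc25a20 and Hadhb kept their calls in all 24 alternatives, whereas that of Acadvl was lost in 11 of them, 8 of which left out 1 mouse. In peroxisomal β-oxidation, 8 of 18 were called higher and 0 lower, with a median of 0.47. Ehhadh, the peroxisomal bifunctional enzyme, had a log2 fold change of 1.75, Acox2, the oxidase for branched chains and bile acid precursors, of 1.59, and Acaa1b, a thiolase, of 1.38, and these 3 kept their calls in all 24 alternatives. With 1 mouse left out, the genes called higher numbered 7 to 12 in the mitochondrial list, with 7 without WT 3, WT 7, IKO 1 or IKO 5. In the peroxisomal list they numbered 4 to 8, with 4 without WT 7, IKO 1 or IKO 5 and 5 without WT 3. Calls over all genes fell as well, from 1200 to 839 without WT 3, 600 without WT 7, 526 without IKO 1 and 515 without IKO 5. Both lists lie in the compartments of Acot2, Acot4 and Acot8.

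Of the acyl-CoA synthetases, which catalyse the reverse step, 3 of 15 tested genes were called higher and 0 lower, with a median log2 fold change of 0.17. The shares over all genes tested were 4.38% higher and 4.28% lower. Acsl3, Acsl1 and Acss2 had log2 fold changes of 1.27, 0.97 and 0.70, and their calls were lost in 16, 12 and 14 of 24 alternatives. With 1 mouse left out, 0 to 3 synthetases were called, with 0 without WT 3, WT 7, IKO 1, IKO 3, IKO 5 or IKO 7 and 1 without WT 1, WT 4 or IKO 2. Of the genes for CoA synthesis, transport and breakdown, 3 of 13 were called higher and 1 lower, with a median of 0.31. Vnn1, the pantetheinase that frees pantothenate for CoA synthesis, had a log2 fold change of 1.11, Ppcs 0.84 and Coasy, which completes CoA synthesis, 0.65. The gene called lower was Pank4. These 3 higher calls were lost in 3, 2 and 2 of 24 alternatives, and 2 genes of the list were called without IKO 1 or IKO 5. Without WT 3, WT 4 and IKO 4, the counts of genes called higher fell to 5 for mitochondrial and 4 for peroxisomal β-oxidation. They fell to 1 for the synthetases and 1 for CoA synthesis, and 0 were called lower in each of these 4 lists. Over all genes, the higher calls then fell from 607 to 276.

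**Figure D5:**
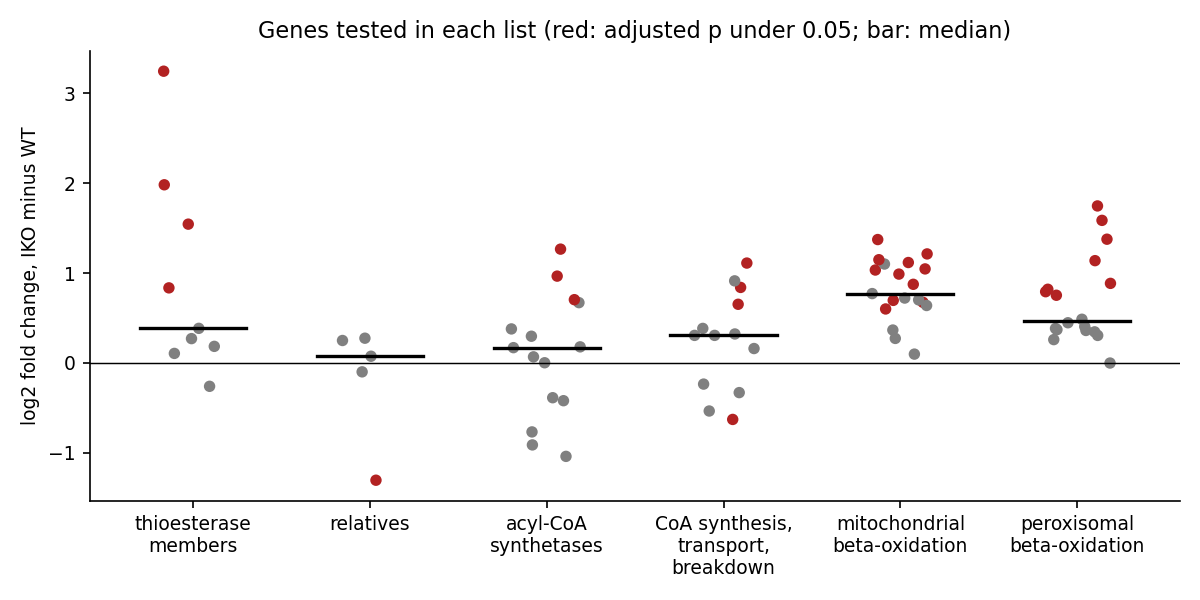
Log2 fold change (IKO minus WT) of each tested gene in the thioesterase family and 5 other lists, in red where the edgeR adjusted p was under 0.05, with the median as a black bar and sideways scatter for display. The median is 0.39 for the thioesterases, 0.77 for mitochondrial and 0.47 for peroxisomal β-oxidation and 0.17 for the acyl-CoA synthetases.

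The genes whose variation within the genotypes was most like that of the type I members were taken from all genes tested, by the correlation of deviations from the genotype means of log2 CPM over the 14 mice, which share libraries and depth. For Acot1 they were 2410015M20Rik (r = 0.972), Prdx3, a mitochondrial peroxiredoxin (r = 0.962), and Psmb2, a proteasome subunit (r = 0.942). For Acot2 they were Tbl3 (r = 0.951), Rae1 (r = 0.945) and Eral1 (r = 0.924), and for Acot4 Casp8 (r = 0.943), Mapkbp1 (r = 0.904) and Tbp (r = 0.895). As the highest of the correlations over all genes tested, these r values are high in part through the choice. Of these 9 genes, 2410015M20Rik (edgeR adjusted p = 0.0495) and Psmb2 (edgeR adjusted p = 0.0184) were themselves called higher in IKO mice, beside 4.38% of all genes tested.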

How the data were processed

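Total RNA of ileum mucosa was sequenced as paired-end libraries, 1 per mouse. Per the submitters' processing notes, HISAT2 2.0.5, featureCounts 1.5.0-p3, DESeq2 1.16.1 and the build mm10 were used. The deposited counts are whole reads per gene, without normalization, and columns named KO were taken as IKO. In the authors' FPKM, gene length and the DESeq2 size factor, times 1 constant, divide the counts, as checked on the values. The strand setting and the treatment of reads that match several genes are not given in the sources used here.

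After filterByExpr and TMM normalization, 13846 genes were tested in R 4.3.3 by the quasi-likelihood method of edgeR 4.0.16 (glmQLFTest), with no term but genotype, and p-values were adjusted over all of them (Benjamini-Hochberg). Levels on the log2 scale add a prior count of 2, and sums of genes add 0.1 CPM. Standard errors of fold changes were derived as the absolute log2 fold change divided by the square root of the quasi-likelihood F statistic. Confidence intervals, at 95%, were built from these and a t quantile. In comparisons of the genotypes, the p-values set the difference against the spread between mice. With 1 library per mouse, this spread includes that between libraries. On simulated counts, 81.5% of 92 genes changed by 2 on the log2 scale and 21.6% of 97 changed by 1 were called. In that simulation 13446 of 13635 genes were unchanged. Far fewer genes were thus changed than the 1200 called in the data, and these shares need not hold there. Per-length levels were compared between genes on log2(FPKM + 0.01). A level of 3 counts was 0.106 to 0.328 CPM.

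The genes named are the members, 9 relatives, Ncor1, the 3 called genes with the largest change in each pathway list, and the 3 genes most like Acot1, Acot2 and Acot4. Pank4, 4732463B04Rik, Gm49366, Snx21, Fam151a, Jchain, Ptprc and Fabp1 were named after their values were seen. Members and lists were chosen with earlier results of these data known. The alternatives were DESeq2 1.42.0, RLE factors, other filters, the mitochondrially encoded genes left out, limma 3.58.1 on log2 FPKM, the sample number as a block, each mouse left out in turn, and WT 3, WT 4 and IKO 4 left out together. The transcript lengths and the list counts under omitted mice were added after the data were seen. Of the other marker lists, ileal enterocyte, goblet, Paneth, and stem and cycling cell genes had 0 called in either direction, as did those of hepatocytes and adipocytes, and 0 of 5 pancreatic genes were tested.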

Additional observations from a re-analysis of the deposited data

Results flagged for a closer look

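Among the 20 groups of 7 examined for a sample far from the others, 1 was marked. The level of Acot7 in WT 4 was 5.50 on the log2 CPM scale, and the nearest other WT mouse was at 4.97, a gap of 0.569 of the whole WT range, just over the critical value of 0.568. Chance alone marks about 1 in 20 groups. WT 4 was also the mouse with the highest sum of smooth muscle markers (10855 CPM), the part of which in this value was not tested. Without WT 4, the log2 fold change of Acot7 was 0.40, and Acot7 was still not called.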

How the results depend on the processing

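The 4 member calls (Acot1, Acot2, Acot4 and Acot8) and the 5 members not called kept their side of the threshold in all 24 alternatives, with log2 fold changes of 2.08 to 3.39, 1.58 to 2.10, 1.47 to 1.64 and 0.74 to 0.90 for the 4. The largest adjusted p was 0.0412 (Acot8, edgeR without WT 3, WT 4 and IKO 4). The count of genes called, 1200 in all, was 2444 with DESeq2, 508 without a filter, 614 with limma without a filter, 433 without WT 3, WT 4 and IKO 4, and 515 (without IKO 5) to 1371 (without WT 2) with 1 mouse left out. No label says whether the same numbers in WT and IKO pair the mice. Of the 7 pairs, 1 correlated above 0.1, and for 0 numbers did both samples match each other best. Such correlations cannot exclude a pairing. With the replicate block, 362 genes were called. In the paired test, the differences in the log2 ratios of Acot1 to Acot2 (1.17) and Acot1 to Acot4 (1.49) missed the threshold (exact permutation adjusted p = 0.0703 for both). Without WT 3, WT 4 and IKO 4 they were 0.96 and 1.26, and with 1 mouse left out 0.91 to 1.34 and 1.23 to 1.69 (1.07, 1.09 and 1.08, and 1.37, 1.23 and 1.43, without IKO 1, IKO 2 or IKO 5). With 1 mouse left out, the log2 fold change of Acot6 ran from -0.21 to 0.13 and was positive without WT 3, WT 4 or IKO 4 (0.13, 0.03 and 0.01) and without all 3 (0.47), and that of Baat ran from -0.038 to 0.25 and was negative without WT 4, WT 5 or IKO 4 (-0.038, -0.0094 and -0.028). The counts of list genes called were 5, 4, 1, 1 and 0 without WT 3, WT 4 and IKO 4 for mitochondrial and peroxisomal β-oxidation, the synthetases, CoA synthesis and the relatives, and 7 to 12, 4 to 8, 0 to 3, 2 to 4 and 0 to 1 with 1 mouse left out. The causes were not tested. Acot3 had too few counts for a fold.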
